A study of Ovis aries with 14 samples.

Results

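The respiratory chain of the mitochondrial inner membrane passes electrons from NADH and succinate to oxygen through complexes I to IV, and the proton gradient so formed drives ATP synthase. Most subunits are encoded in the nucleus, made in the cytosol and imported, and are assembled with the few subunits encoded in mitochondrial DNA. In the ovary, luteal and other steroid-making cells are rich in mitochondria, because steroid synthesis starts at the mitochondrial inner membrane. The genes described here are those whose names begin with NDUF, UQCR, ATP5 or COX4 to COX8, or are SDHA, SDHB, SDHC or SDHD, the usual names of the nuclear subunits. By this rule 61 of the 17323 genes in the 3 deposited tables were members: 60 of 16513 in the fetal table, 61 of 15863 in the first adult table and 60 of 16074 in the second.

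The members comprised 26 subunits of complex I (NADH dehydrogenase), 5 complex I assembly factors (NDUFAF1, 3, 5, 6 and 7), NDUFA4L2, 3 subunits of complex II (succinate dehydrogenase), 5 of complex III (cytochrome bc1 complex), 10 of complex IV (cytochrome c oxidase), 10 of ATP synthase, and ATP5IF1, the inhibitor of ATP hydrolysis by that enzyme. COX6A2, the muscle isoform of a complex IV subunit, was in the first adult table only, with a normalized count of 49.2 in control 4 and 2.04 to 8.14 in the other 5 libraries. Every member passed the filter on low values (a mean of at least 10) in each table that held it. SDHD, UQCRFS1 and ATP5F1A, among other subunits, were not analysed here.

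RNA had been taken from whole frozen ovaries of wild-type Suffolk sheep, and 14 libraries were compared. The fetal groups were 3 controls and 3 testosterone samples at gestation day 90, the last day of treatment. The adult groups were 4 controls (numbered 4 to 7) and 4 testosterone samples (also 4 to 7) at year 2. Testosterone propionate in cottonseed oil was injected into the muscle of the pregnant mother 2 times a week from day 30 to day 90 of gestation, at a dose labelled both as 100 mg and as 1.2 mg/kg, so the offspring were exposed through the mother. The labels do not say what control mothers received. They number the samples without relating them to mothers or litters, and the spread that p-values rest on here is that between samples, whatever their relation.

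Reads recovered from the deposited gene counts summed to 22.6 to 33.4 M per library, where the labels state 45 to 50 M reads. The counting error of the members was not compared with the spread between samples. In the fetal controls that spread was small, with a median SD of 0.098 log2 over the members (0.166 over all genes). Controls 4 and 6 and testosterone 5 and 6 are in both adult tables, so those tables are not independent. They were therefore also joined, with each of the 8 libraries used once. Summed oocyte markers stood between 433 and 1657 RPM (reads per M recovered reads) in the fetal libraries and between 8.42 and 56.2 in the adult ones, and germ cell markers between 516 and 1149 against 13 to 43.1. Granulosa cell markers summed to 263 to 2257 RPM in the 14 libraries, with SERPINE2 alone at 139 to 1542. Some markers on that list were near 0 in single libraries, such as FSHR at 0.142 RPM in adult control 4. FSHR stood at 0.351 to 1.57 RPM in the fetal libraries and was highest in adult control 7 (68.0 RPM). In whole-ovary RNA, fewer cells of a type and less RNA per cell cannot be told apart.

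In the fetal ovary, most respiratory chain genes had slightly higher values after testosterone, but none passed the test. Of the 60 members, 52 had a positive log2 change, against 46.6% of all genes tested, and their median log2 change was 0.16 against -0.02 over all genes. By limma 0 of 60 members passed an adjusted p of 0.05, where 0.0182% of all genes did, and 9 had an unadjusted p under 0.05 (9.76% of all genes). Single libraries moved that last count, which was 2 without control 1, 5 without testosterone 1, 6 without control 2 and 10 to 12 without any of the others. The counts of calls among members were also 0 with edgeR (0.0242% of all genes called), where 10 members had an unadjusted p under 0.05, with DESeq2 (1.59% of all genes called), and in the authors' deposited table. For 21 members every testosterone library lay above every control, which held for 8.88% of all genes, and for 3 members every testosterone library lay below (7.46% of all genes).

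**Figure D1:**
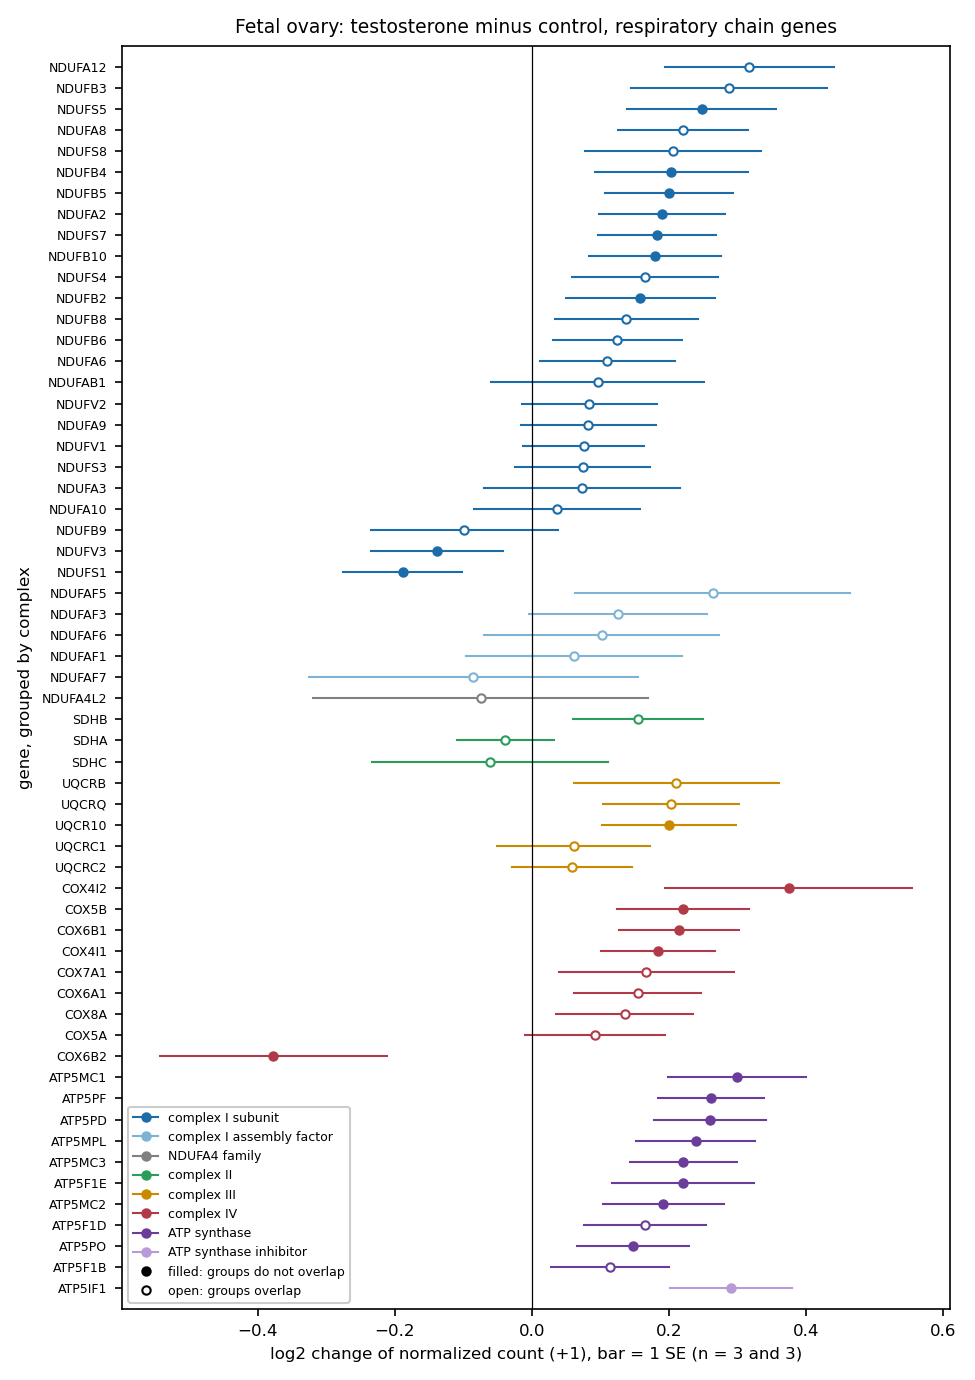
Log2 change of the normalized count (plus 1) between 3 testosterone and 3 control fetal ovaries for 59 respiratory chain genes, with bars of 1 SE, grouped and coloured by complex. Of the points, 51 lie right of 0 and COX6B2 lies farthest left at -0.38. Filled points mark the 24 genes whose groups do not overlap, and no gene passed the adjusted threshold.

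All 10 measured subunits of ATP synthase had a positive change (0.11 to 0.30, median 0.22), and in 8 of them the groups did not overlap. ATP5PF (ENSOARG00000015187), a subunit of the stalk that holds the catalytic head still, had normalized counts of 2148, 2138 and 2163 in the controls and 2671, 2559 and 2501 after testosterone. The controls lay close together and all 3 testosterone libraries were higher (log2 change 0.26, SE 0.08, limma adjusted p = 0.351). ATP5PD, another stalk subunit, had 2894, 3003 and 3015 in the controls and 3806, 3516 and 3361 after testosterone (log2 change 0.26, SE 0.08, limma adjusted p = 0.380). Again the groups did not overlap.

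ATP5MC1 and ATP5MC3 encode the same mature membrane subunit c, whose ring turns as protons pass. ATP5MC1 had 1282, 1402 and 1574 in the controls and 1738, 1786 and 1700 after testosterone (log2 change 0.30, SE 0.10, limma adjusted p = 0.417). ATP5MC3 had 3712, 3780 and 3940 against 4622, 4515 and 4194 (log2 change 0.22, SE 0.08, limma adjusted p = 0.442). ATP5F1B, the catalytic beta subunit, was among the 2 subunits whose groups overlapped, with 11645, 11802 and 12953 in the controls and 12153, 14126 and 13149 after testosterone. The inhibitor ATP5IF1 had 1421, 1373 and 1493 against 1837, 1746 and 1661, without overlap (log2 change 0.29, SE 0.09, limma adjusted p = 0.369).

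Complex I subunits had a positive change in 23 of 26 (median 0.13), with 7 higher and 2 lower without overlap. The 3 negative ones included NDUFS1, the largest iron-sulfur subunit, with 2119, 2406 and 2154 in the controls and 1916, 1978 and 1957 after testosterone. Every testosterone value lay below every control value (log2 change -0.19, SE 0.09, limma adjusted p = 0.536). NDUFV3, an accessory subunit of the same NADH-oxidising module, was also lower without overlap (1223, 1210 and 1342 against 1076, 1164 and 1190, log2 change -0.14, limma adjusted p = 0.660). NDUFB9, an accessory subunit of the membrane arm, had a log2 change of -0.10 with overlapping groups (2810 to 3775 after testosterone, 3261 to 4089 in controls). The core subunits NDUFS3, NDUFS7, NDUFS8, NDUFV1 and NDUFV2 had changes between 0.07 and 0.21 and none passed. Chosen after their values were seen, NDUFA12 (0.32) and NDUFA8 (0.22) were the 2 complex I subunits with an unadjusted p under 0.05. In both of them the groups overlapped.

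Complex II had a positive change in 1 of 3 subunits (median -0.04). SDHA, the flavoprotein that oxidises succinate, had 7455, 7343 and 7342 in the controls and 6975, 7108 and 7478 after testosterone (log2 change -0.04, SE 0.07, limma adjusted p = 0.880). Its highest fetal library was 1.07 times the lowest, the smallest range of the 60 members. SDHB, the iron-sulfur subunit, had a log2 change of 0.16 and SDHC, a membrane anchor, of -0.06, both with overlapping groups. SDHC turned positive without control 3 (0.12) or without testosterone 2 (0.05), and NDUFB9 without testosterone 2 (0.04).

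Complex III had a positive change in 5 of 5 subunits (median 0.20), and UQCR10, a small subunit, was the 1 without overlap (1143, 1019 and 1157 against 1323, 1270 and 1217). Complex IV had a positive change in 8 of 9 (median 0.17). COX4I2, the isoform of subunit 4 known for its induction in low oxygen, had 183, 140 and 175 in the controls and 224, 232 and 188 after testosterone (log2 change 0.37, SE 0.18, limma adjusted p = 0.549). COX6B2 (ENSOARG00000001452), the isoform of subunit 6B known from testis, went the other way. Its counts were 165, 168 and 154 in the controls and 122, 120 and 133 after testosterone, without overlap (log2 change -0.38, SE 0.17, limma adjusted p = 0.516).

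Other lists of genes also had changes mostly in 1 direction in the same fetal libraries. Cytosolic ribosomal proteins had a positive change in 32 of 35 (median 0.26), and mitochondrial ribosomal proteins in 52 of 64 (median 0.10). Smooth muscle markers were positive in 10 of 10 (median 0.55), with summed levels of 1876 to 2398 RPM in controls and 2410 to 3463 after testosterone. Germ cell and meiosis markers were negative in 16 of 16 (median -0.44), with summed levels of 629 to 1149 RPM in controls and 516 to 861 after testosterone. Granulosa cell markers were positive in 7 of 8 (median 0.36), glycolysis genes in 11 of 14 (median 0.14), and macrophage markers negative in 9 of 11 (median -0.21). None of these genes passed the threshold by limma, and their part in the changes of the respiratory chain genes was not tested. With the summed germ cell markers as a covariate, a setting added after the data were seen, the members' median was 0.20. Leaving out each fetal library in turn gave a median of 0.11 (without testosterone 1) to 0.20 and 50 to 53 positive members.

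In the pathway around the chain, tricarboxylic acid cycle enzymes had a positive change in 11 of 15 (median 0.04), electron carrier and coenzyme Q synthesis genes in 9 of 13 (median 0.02), and carrier and channel genes in 9 of 11 (median 0.07). Regulators of mitochondrial biogenesis were positive in 6 of 16 (median -0.04), hypoxia response genes in 4 of 14 (median -0.12), and mitochondrially encoded genes in 5 of 10 (median -0.05). Assembly factors outside the name rule were positive in 8 of 11 for complex I, 1 of 2 for complex II, 1 of 5 for complex III, 9 of 15 for complex IV and 3 of 3 for ATP synthase. By limma 0 genes of these lists passed.

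In the adult ovary the members varied widely between libraries of the same group. Summed over the 60 members, RPM were 5505, 6405, 8155 and 6069 in controls 4 to 7, and 9364, 5020, 5593 and 7116 in testosterone 4 to 7. Both the highest and the lowest library belonged to the testosterone group, and the controls lay between them. The highest adult sum was 1.87 times the lowest, against 1.18 times in the fetuses (5680 to 6697 RPM). For the median member, the highest adult library was 2.32 times the lowest (2.68 over all genes), against 1.29 times in the fetuses (1.47 over all genes).

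**Figure D2:**
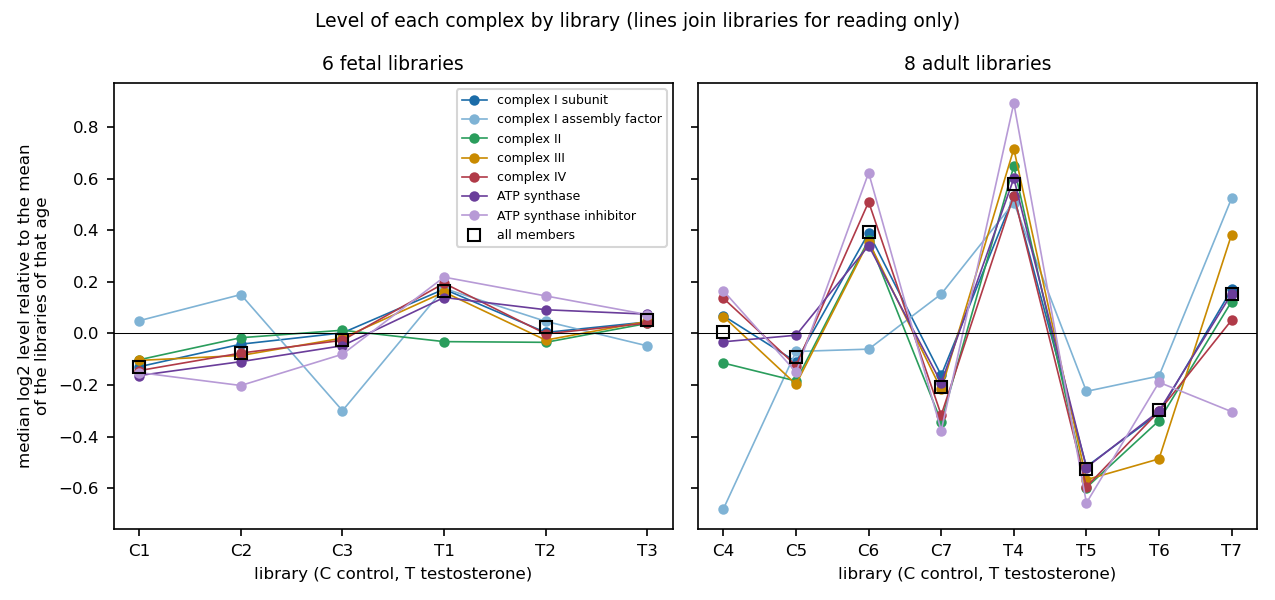
Median log2 level of the members of each complex in each library, relative to the mean of the libraries of the same age, for 6 fetal (left) and 8 adult (right) libraries. Squares give all members. The adult squares run from -0.53 in testosterone 5 to 0.58 in testosterone 4, and the fetal ones from -0.13 to 0.17. The subunits of complexes I to IV and ATP synthase all have their highest adult point in testosterone 4 and their lowest in testosterone 5. The complex I assembly factors part from the squares, most in control 4 (-0.68 against 0.01), and the inhibitor does in testosterone 7 (-0.30 against 0.15).

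By the median of their subunits, complexes I to IV and ATP synthase shared their highest and lowest adult libraries. The complex I assembly factors did not, with their highest median in testosterone 7 (0.52) and their lowest in control 4 (-0.68), nor did NDUFA4L2, highest in control 4 (0.88) and lowest in control 5 (-1.09). Testosterone 4 was the highest adult library for 42 of 60 members, as for 13.5% of all genes, and testosterone 5 the lowest for 50 of 60, as for 10.2% of all genes. Control 6, testosterone 4 and testosterone 7 all lay above the other 5 libraries for 33 of 60 members (14.4% of all genes), and testosterone 5 and 6 below the other 6 for 27 of 60 (5.62% of all genes). Both patterns were chosen after the values were seen and have no test.

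SDHA (ENSOARG00000015619) had a wide range. On a scale shared by the 8 adult libraries, its rescaled counts were 5601, 5588, 11878 and 5083 in controls 4 to 7 and 15355, 4608, 5516 and 7597 in testosterone 4 to 7. Control 6 and testosterone 4 stood above the other 6 libraries. UQCR10 ranged from 1129 in testosterone 5 to 4209 in testosterone 4, 3.73 times as much. The widest ranges were those of COX6B2 (4.02 times), NDUFA4L2 (3.96 times), UQCR10, SDHA (3.33 times) and NDUFV1, the subunit that binds NADH (3.33 times).

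The narrowest range was that of NDUFAF3, a complex I assembly factor, with 905 to 1050 in the controls and 814 to 1041 in the testosterone libraries, 1.29 times from lowest to highest. ATP5MC2, the third gene for subunit c, followed with 1.58 times, and its order differed from that of the other members. It was highest in control 4 (8024) and lowest in testosterone 7 (5070). NDUFB8 (1.59 times), NDUFA6 (1.63 times) and NDUFS7 (1.65 times) were next.

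The libraries with high respiratory chain levels also had high luteal markers. The luteal list (7 genes measured, including STAR, CYP11A1 and OXT) summed to 19034 RPM in control 6, 16596 in testosterone 4 and 15655 in testosterone 7. It summed to 2810 in control 5, of which TIMP1, a protease inhibitor gene on the list, made up 2552, and to 494 to 682 in the other 4, with TIMP1 at 203 to 357. OXT, which marks the corpus luteum in sheep, stood at 3507, 4047 and 2334 RPM in the first 3 and at 0.916 to 3.17 in the other 5. Macrophage markers followed the same split (1629 to 1730 against 126 to 411 RPM), as did mitochondrially encoded genes (15206 to 29220 against 6886 to 9486). Smooth muscle markers were lowest in those 3 libraries (2709 to 3022 RPM) and highest in control 4 (26866). Those 3 libraries were 1 of 4 controls and 2 of 4 testosterone samples, and the part of any of these cells in the members' levels was not tested.

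**Figure D3:**
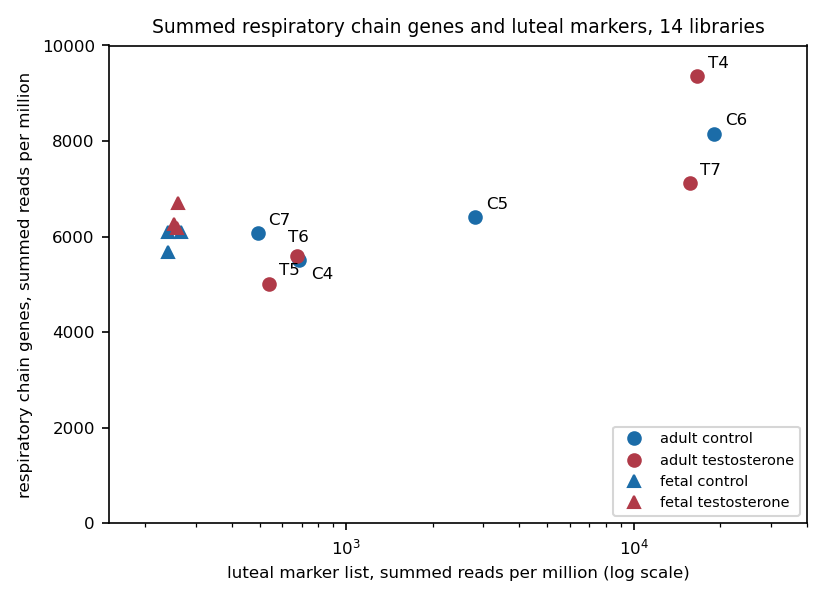
Summed RPM of the 60 respiratory chain genes against those of the luteal marker list (log scale) in 14 libraries. Control 6, testosterone 4 and testosterone 7 lie at the right, with 15655 to 19034 luteal RPM and member sums of 7116 to 9364. The other 5 adult libraries have member sums of 5020 to 6405.

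Compared by treatment, no member passed the test in the adults. Of the 61 members in the first adult table, 6 had a positive log2 change (48.5% of all genes) and 55 a negative one (median -0.18), and 0 passed the limma threshold (0.00631% of all genes). In the second, 4 of 60 were positive (49% of all genes) and 56 negative (median -0.26), and 0 passed (0.00623% of all genes). With all 8 libraries joined, 24 of 60 were positive (49.1% of all genes) and 36 negative, the median was -0.03, 0 passed (0.0127% of all genes) and 0 had groups that did not overlap (0.704% of all genes). In these 3 fits edgeR called 0 members, as 0%, 0% and 0.00635% of all genes, and DESeq2 0 members, against 0.0252%, 0.0311% and 0.0444%. In each fit 0 members had an unadjusted limma p under 0.05, against 0.637%, 0.486% and 0.806% of all genes. In the joined fit the sign of the median was positive under scaling to the library total (0.03), quantile normalization (0.00296) and edgeR (0.00172).

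Single libraries turned the sign of the median in the first table and the joined fit, and did not in the second table (-0.43 to -0.10). In the first table the median was -0.52 without testosterone 4 and 0.05 without testosterone 5. In the joined fit it was -0.22, with 57 negative members, without testosterone 4 and 0.13, with 12 negative members, without testosterone 5. It was also positive without control 6 (0.09) or testosterone 6 (0.05). With the luteal list as a covariate, added after the data were seen, the joined median was -0.10, 49 members were negative and 0 passed.

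The members of smallest p in the joined adults were all above the threshold. NDUFA3, an accessory subunit of the membrane arm of complex I, had 963, 900, 1147 and 676 in controls 4 to 7 and 899, 424, 543 and 862 in testosterone 4 to 7. The groups overlapped (log2 change -0.48, SE 0.29, limma adjusted p = 0.9999), and the change was -0.76 in the first table and -0.63 in the second. COX4I2 had 142, 130, 146 and 95.5 in the controls and 92.1, 90.0, 80.2 and 99.8 after testosterone. Only control 7 and testosterone 7 crossed (log2 change -0.48, SE 0.28, limma adjusted p = 0.9999). In the first table, which holds neither of them, COX4I2 was the 1 member of 61 whose groups did not overlap with testosterone lower, as for 1.92% of all genes (log2 change -0.68, limma adjusted p = 0.9999). In the second table the 1 such member of 60 was ATP5MC1 (log2 change -0.49), as for 1.56% of all genes.

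NDUFAF7, a methyltransferase that acts in complex I assembly, had the smallest p among positive changes in all 3 adult fits (0.46, 0.26 and 0.51). Its joined counts were 335, 385, 699 and 617 in the controls and 931, 496, 517 and 958 after testosterone, with overlap. In the second table its change turned negative without control 4 (-0.07) or testosterone 7 (-0.04). In the joined fit ATP5MC2 had -0.24, NDUFS5, an accessory subunit of complex I, -0.23, and COX6B2 -0.50.

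The effect of testosterone was also compared between ages in 1 model over all 14 libraries. The adult minus fetal difference was positive for 11 of 60 members (48.9% of all genes) and negative for 49 (median -0.18) and 0 passed the limma threshold (0.00659% of all genes). The 2 members with an unadjusted p under 0.05 (1.57% of all genes) were COX4I2 (-0.86, SE 0.33, limma adjusted p = 0.9999) and ATP5MC2 (-0.43, SE 0.19, limma adjusted p = 0.9999). The median ran from -0.38 without adult testosterone 4 to -0.02 without adult testosterone 5.

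The comparison of adult with fetal controls asks how the chain differs between the 2 ages without testosterone. With all 14 libraries on a common scale, 13 of 60 members were higher in adult than in fetal controls by limma and 1 was lower, where 9.24% of all genes were called higher and 11.6% lower. Read against that background, the 13 higher members are 21.7% and the 1 lower 1.67%, while the total of 14 (23.3%) is close to the 20.9% of all genes. With edgeR 13 members were called (20.7% of all genes), and with DESeq2 22 (34.2% of all genes). The median log2 difference was 0.33 over the members and 0.03 over all genes, and 50 members had a positive difference (51.6% of all genes). For 26 members every adult control lay above every fetal control (19.9% of all genes) and for 1 every adult control lay below (20.6% of all genes). Age and table cannot be told apart, because the fetal and adult libraries were deposited in separate tables.

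**Figure D4:**
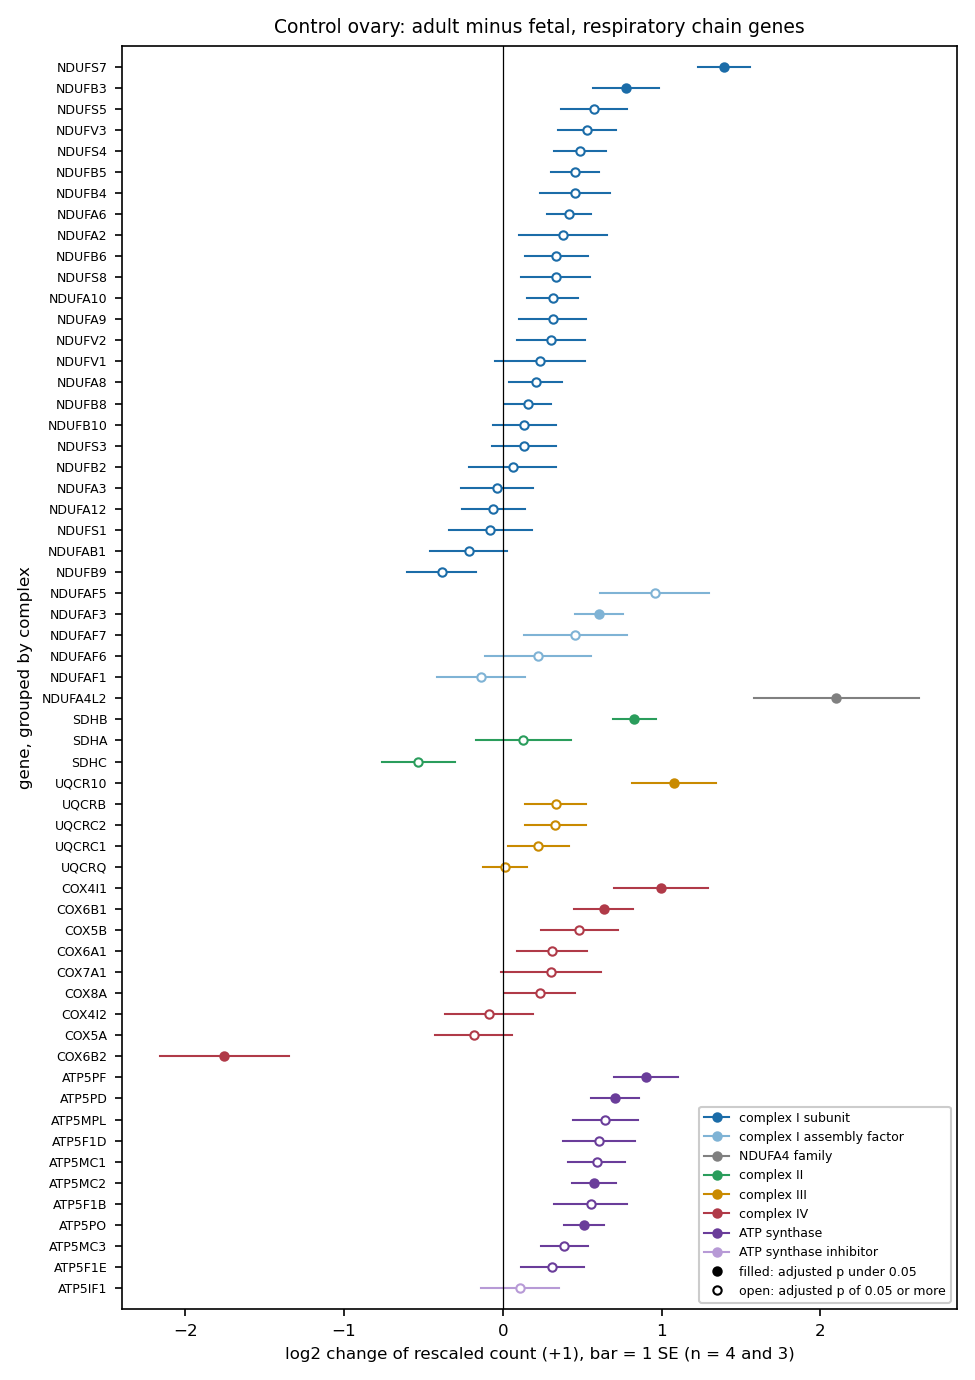
Log2 difference of the rescaled count (plus 1) between 4 adult and 3 fetal control ovaries for 59 respiratory chain genes, with bars of 1 SE, grouped by complex. Filled points mark 13 genes with an adjusted p under 0.05: 12 lie right of 0, with NDUFA4L2 farthest at 2.10, and COX6B2 lies left at -1.75.

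These calls depend on how the libraries are scaled. When each library was scaled to its total reads, the median over all genes was -0.33 and over the members -0.03, and the called members were 3 higher and 3 lower, where 23.6% of all genes were called. Over all genes the split then was 661 higher and 2926 lower, against 1402 and 1767. NDUFS7 and NDUFA4L2 were higher and COX6B2 lower under both scalings, while SDHC (-0.89) and NDUFB9 (-0.75) were called lower only after scaling to the total. Without any 1 of the 3 fetal controls, 3 members were called each time. Calls over all 15168 genes tested fell as well, to between 347 and 375 higher and between 667 and 717 lower. NDUFS7 and SDHB kept their call whichever library was left out, but SDHB lost it after scaling to the total (0.47, limma adjusted p = 0.127). Of the 7 fits that each left out 1 library, NDUFA4L2 and COX6B2 kept their call in 3 and COX4I1 in 1. UQCR10, ATP5PO, NDUFB3 and COX6B1 missed the threshold when all 14 libraries shared 1 limma fit (adjusted p = 0.0534 to 0.0707), and ATP5MC2, ATP5PO, COX6B1 and COX4I1 after quantile normalization (adjusted p = 0.0691 to 0.189). The count of members was 8 without adult control 5, where 939 of all genes were called higher and 1343 lower. It was up to 16 without adult control 7, where 1795 of all genes were called higher and 2065 lower.

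In complex I, NDUFS7 and NDUFB3 were among the subunits that rose with age. By limma 0 of 26 subunits were called lower, where 11.6% of all genes were, and 5 had a negative difference, among them NDUFB9, which was called lower after scaling to the total. NDUFS7 (ENSOARG00000011589) carries the iron-sulfur cluster that hands electrons to ubiquinone. It had rescaled counts of 2014, 2093 and 2051 in fetal controls and 4911, 4455, 5984 and 6441 in adult controls. Every adult value lay well above every fetal one (2052 ± 39.3, SD, n = 3, to 5448 ± 921, n = 4, log2 difference 1.39, SE 0.16, limma adjusted p = 0.00204). NDUFB3, an accessory subunit, rose by 0.78 (limma adjusted p = 0.0365). Smaller differences were seen in core subunits, with NDUFS1 at -0.08, NDUFS3 at 0.13, NDUFV1 at 0.23, NDUFV2 at 0.30 and NDUFS8 at 0.33, none of which passed. Of the 5 assembly factors NDUFAF3 rose (0.60, limma adjusted p = 0.0301).

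In complex II the 3 subunits parted. SDHB (ENSOARG00000011278) had 2146, 2283 and 2145 in fetal controls and 3502, 3675, 4479 and 3985 in adult controls (log2 difference 0.83, SE 0.14, limma adjusted p = 0.00694). Its call was lost after scaling to the total. SDHC had 2471, 2407 and 3600 against 2131, 1682, 2503 and 1516, with overlap (-0.53, limma adjusted p = 0.138). SDHA had 6668, 6585 and 6616 against 6151, 6098, 13198 and 5576. Control 6 alone lay above the fetal values, and the difference was 0.13 with it and -0.16 without it. It was also negative after scaling to the total (-0.23) and after quantile normalization (-0.18).

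Of complex III, UQCR10 rose (log2 difference 1.08, SE 0.26, limma adjusted p = 0.0271), from 914 to 1043 in fetal controls to 1554 to 3268 in adult controls. On the scale of size factors all 10 ATP synthase subunits had higher values in every adult control than in every fetal control (19.9% of all genes), and 4 passed the test (9.24% of all genes called higher). Per M reads, the sum over these subunits in adult control 4 (1526 RPM) lay below all 3 fetal controls (1532 to 1639 RPM), and the other adult controls lay above them (1790 to 2211 RPM). The 4 that passed were the 3 stalk subunits ATP5PF (0.90, SE 0.20, limma adjusted p = 0.0205), ATP5PD (0.71, SE 0.15, limma adjusted p = 0.0168) and ATP5PO (0.51, SE 0.13, limma adjusted p = 0.0281), and ATP5MC2 (0.57, SE 0.14, limma adjusted p = 0.0262). After scaling to the total 0 of the 10 passed. The inhibitor ATP5IF1 had overlapping groups (0.11, limma adjusted p = 0.775).

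Complex IV held changes in both directions. COX4I1, the general isoform of subunit 4, had 7518, 8077 and 8389 in fetal controls and 22124, 12706, 22151 and 10366 in adult controls (log2 difference 0.997, SE 0.30, limma adjusted p = 0.0497). Controls 4 and 6 were well above the other 2 adults. COX6B1 rose by 0.63 (SE 0.19, limma adjusted p = 0.0474), a call that was lost with edgeR (adjusted p = 0.0563). COX6B2 fell from 147, 151 and 139 to 25.9, 37.0, 74.7 and 44.9 (146 ± 6.26, SD, n = 3, to 45.6 ± 20.9, n = 4, log2 difference -1.75, SE 0.41, limma adjusted p = 0.0223). COX5A, with -0.18, and COX4I2, with -0.09, did not pass.

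NDUFA4L2 (ENSOARG00000007095), a paralog of the complex IV subunit gene NDUFA4 known as a target of hypoxia-inducible factors, had the largest difference of the 60 members on the scale of size factors. After scaling to the total its difference was 1.74, and that of COX6B2, at -2.11, was larger in size. It stood at 71.7, 58.8 and 63.0 in fetal controls and at 522, 131, 470 and 188 in adult controls (64.5 ± 6.58, SD, n = 3, to 328 ± 197, n = 4, log2 difference 2.10, SE 0.52, limma adjusted p = 0.0286). Controls 4 and 6 were high and controls 5 and 7 low, all above the fetuses.

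Other lists are given for the same libraries, to be read against the 9.24% of all genes called higher and the 11.6% called lower. Of 20 listed germ cell markers 7 were tested, and 6 were lower by limma (median -6.29). Of 11 listed oocyte markers 6 were tested, and 5 were lower (median -4.64). The filter took the mean over both ages, so markers near 0 in adults could pass on their fetal values. Cytosolic ribosomal proteins were higher in 23 of 33 (median 0.81) and smooth muscle markers in 4 of 10 (median 2.49). Of the pathway around the chain, 3 of 15 tricarboxylic acid cycle enzymes were higher (IDH2 0.70, IDH3B 0.67 and SUCLG1 0.69, median of the list 0.42). Among carriers and channels 4 of 11 were higher: the phosphate carrier SLC25A3 (1.01), UCP2 (3.14), VDAC2 (0.72) and VDAC1 (0.70). Mitochondrially encoded genes were higher in 2 of 10 (median 1.19), a share above the 9.24% of all genes, and lower in 0. Mitochondrial ribosomal proteins were higher in 4 of 64 and lower in 1, and for this list both shares were below those of all genes. Biogenesis regulators had 1 higher (POLG, the mitochondrial DNA polymerase, 0.69) and 2 lower (TFB1M, a methyltransferase of mitochondrial ribosomal RNA, -1.82, and PPARGC1A, a coactivator of mitochondrial genes, -2.94). Their part in the members' differences was not tested.

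Several members are isoforms of the same subunit, and 5 pairs had both genes measured in all 14 libraries. The ratio of their reads within a library does not depend on how libraries are scaled, and is compared here between libraries only, since gene lengths were not used. COX4I2 over COX4I1 was 0.0157 to 0.0219 in fetal controls and 0.00708 to 0.0112 in adult controls, without overlap (log2 difference -1.09). The exact two-sided permutation test gave p = 0.0286, the smallest these 4 and 3 samples allow, and 0.214 after adjustment over the 15 tests of this family. Over all 8 adult against all 6 fetal libraries the log2 difference was -1.36, without overlap. This comparison pooled controls and testosterone samples, was added after the data were seen and lay outside the 15 tests, so no p is given.

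COX6B2 over COX6B1 was 0.0478 to 0.0562 in fetal controls and 0.00636 to 0.0131 in adult controls (log2 difference -2.39, exact permutation p = 0.0286, adjusted 0.214). In fetal testosterone libraries it was 0.0318 to 0.0374, below all 3 controls (log2 difference -0.59, exact permutation p = 0.1, the smallest 3 against 3 allow, adjusted 0.375). In the adult testosterone libraries it was 0.00641 to 0.00825, which overlapped the controls (log2 difference -0.51, exact permutation p = 0.143, adjusted 0.429). COX4I2 over COX4I1 overlapped between treatment groups at both ages (0.19 in fetuses, -0.36 in adults).

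**Figure D5:**
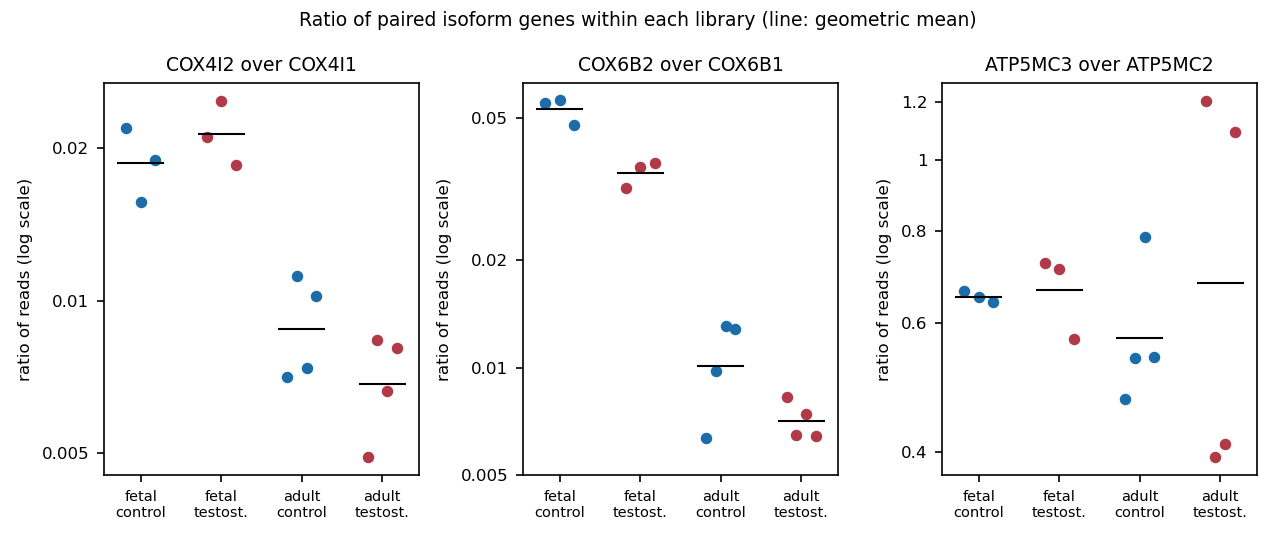
Ratio of the reads of paired isoform genes within each library (log scale) in the 4 groups, with lines at the geometric means. COX4I2 over COX4I1 and COX6B2 over COX6B1 are lower in all 8 adult than in all 6 fetal libraries. ATP5MC3 over ATP5MC2 spreads from 0.393 to 1.20 in the adult testosterone group.

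The genes for subunit c parted among the adult libraries. ATP5MC3 over ATP5MC2 was 0.570 to 0.724 in the 6 fetal libraries. In the adults it was 1.20 in testosterone 4, 1.09 in testosterone 7 and 0.785 in control 6, the 3 libraries with high luteal markers, and 0.393 to 0.538 in the other 5. The adult groups overlapped (log2 difference 0.25 for testosterone minus control, exact permutation p = 0.6).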

How the data were processed

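The authors deposited 3 tables of normalized counts, a signal per gene and library, with log2 fold changes, p-values and adjusted p-values from DESeq2, which the series text names. Per the submitters' processing notes, Trimmomatic 0.36 trimmed the reads and STAR 2.5.2b aligned them. For counting program, build and annotation: not given in the sources used here. In every library 100% of values were whole multiples of 1 step (tolerance 0.01), so whole reads were recovered. For control 6 this gave 26.4 M reads from the first adult table but 33.4 M from the second, and the joined data use the latter. Joined libraries were rescaled by median-of-ratios size factors.

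limma 3.58.1, under R 4.3.3, was fitted with a trend to log2 values after adding 1. Genes were kept at a mean of 10 or more, and p-values were adjusted by Benjamini-Hochberg over all of them, with a threshold of 0.05. edgeR 4.0.16 (quasi-likelihood) and DESeq2 1.42.0 were run on the recovered reads. The fits were also run on simulated data, in which genes were drawn independently of each other, and no result here rests on that. Isoform ratios were tested by exact permutation.

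The fetal table holds 3 controls and 3 testosterone samples. In the adults, numbers 4, 5 and 6 of both groups make up the first table, and controls 4, 6 and 7 with testosterone 5, 6 and 7 the second. The series text counts 3 adult controls and 4 treated, which neither table holds. In both adult tables the column of testosterone 5 carries the suffix Resub, which its sample title does not have.

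Members, lists and tests were chosen with earlier results of these data known. The naming rule admits members that passed a test (at most 12 a direction), the 5 of smallest p in each direction, isoform pairs, succinate dehydrogenase and core catalytic subunits, ATP5IF1, and the 5 of widest and of narrowest adult range. Not every admitted member is named, and of other lists the text names only some genes, as examples. Alternatives were other filters, pseudocounts, scalings and tools, the sample number as a block, and the omission of each library in turn. Germ cell and luteal covariates, number 7 as a batch and all libraries for isoform ratios were chosen after seeing the data. The counts include 1 member that is not reported here by name and not drawn by itself. No sequences or coordinates were used.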

Additional observations from a re-analysis of the deposited data

Results flagged for a closer look

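Groups of 4 adult libraries were examined in 138 cases (each member's rescaled count and each complex's sum, in controls and in testosterone samples). Of these, 9 held 1 library far from the other 3, with a gap over 0.829 of the group's range. Chance gives such a gap in about 5% of independent groups, close to the share found. The groups share libraries and include sums of the same genes. They are not independent, so that rate does not tell whether the number found is that of chance. In 8 of the 9 the library was control 6. SDHA stood at 11878 against 5083 to 5601 in the other controls, NDUFS1 at 2793 against 1388 to 1497, and NDUFS3 at 2240 against 1391 to 1500. NDUFV3 stood at 1942 against 1325 to 1402, NDUFB4 at 1235 against 730 to 810, UQCRB at 1862 against 1207 to 1316, and ATP5F1E at 4488 against 2890 to 2971. The inhibitor ATP5IF1 had 68.5 RPM in control 6 against 39.1 to 43.6. Control 6 was also the control with high luteal and macrophage markers, whose part in these values was not tested. The remaining case was NDUFB2 in testosterone 4, at 3395 against 1372 to 1632.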

How the results depend on the processing

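Counts of members called were 0 under every alternative run in the fetal, adult and between-age comparisons of testosterone. Over all genes the main limma counts were 3 (fetal), 1 and 1 (adult tables), 2 (joined adults), 3169 (age) and 1 (between ages). DESeq2 gave 262, 4, 5, 7, 5185 and 10 in that order, and edgeR gave 0 in both adult tables and 1 in the joined adults. In the joined adults 1 gene was called at a mean of at least 50 and with number 7 as a batch, and in the fetuses 1 with the germ cell covariate. In the fetuses the correlations of same-numbered samples' deviations were 0.13, 0.01 and 0.40, against -0.34 to 0.27 for pairs of other numbers. In the joined adults they ranged from -0.64 to 0.30, against -0.62 to 0.68 for pairs of other numbers. The labels do not say whether samples of the same number are related. With the number as a replicate block, 10 genes were called in the fetuses and 0 in each adult fit, and 0 members in each. For age, members called were 14 by limma, 22 with DESeq2 and 6 after scaling to the total, where the members' median was -0.0285. SDHA reversed there (-0.23), with quantile normalization (-0.18) and without adult control 6 (-0.16). The ratio of the highest to the lowest adult sum was 2.14 when scaled by size factors.

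Leaving out 1 library at a time gave these ranges. Calls over all genes ran from 0 to 13 (fetal), 0 in each adult table, 1 in the joined adults and from 1014 to 4125 (age), and members called for age from 3 to 16. Member medians ran from 0.11 to 0.20 (fetal), -0.52 to 0.05 and -0.43 to -0.10 (adult tables), -0.22 to 0.13 (joined), 0.23 to 0.43 (age) and -0.38 to -0.02 (between ages). Of the values that reversed, fetal NDUFB9 ran from -0.18 to 0.0372, fetal SDHC from -0.17 to 0.12 (0.05 without testosterone 2), NDUFAF7 in the second adult table from -0.0660 to 0.47 (-0.04 without testosterone 7), SDHA in the joined adults from -0.19 to 0.45, and SDHA by age from -0.16 to 0.26. The adult minus fetal ratio ran from -1.21 to -0.97 for COX4I2 over COX4I1 and from -2.51 to -2.17 for COX6B2 over COX6B1, with smallest possible p of 0.0667 or 0.1. For testosterone minus control in adults, COX6B2 over COX6B1 ran from -0.73 to -0.39 (p = 0.0286 without control 4, exact permutation) and ATP5MC3 over ATP5MC2 from -0.0306 to 0.51. The causes were not tested.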
